A study of Mus musculus with 16 samples.

Results

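The 33 genes described here encode the enzymes of cholesterol and fatty acid synthesis together with the SREBP factors that drive them and the proteins that hold those factors in check. They were taken from a fixed list of gene symbols, matched through GENCODE M21 to the identifiers of the deposited tables, and are 33 of the 54838 gene identifiers listed and 33 of the 12612 genes with enough reads to be tested. All 33 members passed the filter on low counts. Earlier results of these data were known when the list was chosen, so counts of members beside shares of all genes are descriptive. The list holds 23 sterol members (8 of the mevalonate pathway, 10 of the steps from squalene to cholesterol, and 5 regulators and carriers) and 10 fatty acid members.

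RNA was sequenced from mouse bone marrow-derived macrophages, cells grown out of marrow with L929-conditioned medium as the source of macrophage growth factor. All 4 groups share 1 genotype, the Apoe-deficient mouse line B6.129P2-Apoetm1Unc/J, whose strain is given as C57BL/6J, so no group carries functional ApoE, the apolipoprotein that takes part in cholesterol efflux from macrophages. Every group was also held without the conditioned medium before stimulation and stimulated in medium free of fetal calf serum. In the TMP195+TNFα group the cells had 5 µM TMP195, an inhibitor of class IIa histone deacetylases, for 1 h before 50 ng/ml TNFα for 24 h. In the TPCA-1+TNFα group they had 500 nM TPCA-1, an inhibitor of the NF-κB kinase IKK2, for 1 h before the same TNFα. The TNFα group had TNFα alone and the DMSO group the solvent. Each group has 4 libraries, numbered 1 to 4. The labels do not say whether a number marks an animal, a culture or a day, or whether cells with TNFα alone also had DMSO. The error behind every p-value comes from the spread among these 4 libraries a group, pooled over the groups in the fit. Where the replicate number entered the fit, it is the spread left after the number effect is taken out. Either spread may be technical. The 2 inhibitors were used at 1 dose each, and the doses differ.

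As background, SREBP factors are made as precursors in the membrane of the endoplasmic reticulum. When membrane sterol is low, the escort protein SCAP carries them to the Golgi, where proteases free the part that enters the nucleus; when sterol is plentiful, INSIG proteins keep SCAP in place. SREBP2, from Srebf2, acts mainly on genes of cholesterol synthesis, and SREBP1, from Srebf1, mainly on genes of fatty acid synthesis, with overlap. In macrophages the same enzymes supply membrane during activation, and their intermediates and products feed the LXR receptors, which also act on Srebf1 and Scd genes.

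Depth was 7489066 to 31596572 counted reads per library. TPCA-1+TNFα library 2 stood apart, with 7489066 counts and 44% of its reads unmapped, while the other 15 libraries had at least 18562773 counts and 4.0% to 7.11% unmapped. Apoe had 1 to 11 reads per library. The 8 macrophage markers summed to 12535 to 17964 CPM (counts scaled to the TMM-adjusted library total) in TMP195+TNFα, 12898 to 21144 in TPCA-1+TNFα, 17782 to 25964 in TNFα and 16304 to 25361 in DMSO libraries. The adipocyte markers Plin1, Cidec and Lep were listed at 0 in all 16 libraries, and the remaining adipocyte marker, Adipoq, had 2 reads in TNFα library 4 and 0 elsewhere. Counting error was small for most members: the total over 16 libraries ran between 986 reads (Idi1) and 61376 reads (Scd2), and the lowest single library count was 5 (Fads2 in TPCA-1+TNFα library 2). In bulk RNA, fewer cells that make a transcript and less of it per cell cannot be told apart.

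Compared per length, as RPKM (reads scaled by library size and by exon length), the level of the members in TNFα libraries covered a wide range. Scd2, a stearoyl-CoA desaturase, was highest at 58.4 ± 30.7 RPKM (SD, n = 4), followed by the citrate-cleaving enzyme Acly at 26.6 ± 6.21 RPKM, and the spreads of this pair overlapped. The sterol members Msmo1 (18 ± 6.24), Ebp (15.1 ± 2.67), Sc5d (14.6 ± 5.12), Nsdhl (14.3 ± 4.70) and Insig1 (11.6 ± 4.85) followed, each within the spread of its neighbours. The factors Srebf2 (9.21 ± 4.31 RPKM) and Srebf1 (8.42 ± 3.68 RPKM) were at a similar level. The lowest were the isoprenoid isomerase Idi1 (1.37 ± 0.729), the sterol reductase Tm7sf2 (0.877 ± 0.530), the acetyl-CoA carboxylase Acaca (0.752 ± 0.20) and the elongase Elovl6 (0.584 ± 0.204 RPKM). The order was not the same in every group: the acetyl-CoA synthetase Acss2 stood at 7.49 ± 1.38 RPKM in TMP195+TNFα libraries and, at 0.815 ± 0.111 RPKM, lay beside the lowest members in DMSO libraries.

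Promoters of 26 members (19 sterol, 7 fatty acid) were in the RefSeq promoter table of build GRCm38.p6, in 34 windows that run from 250 bases before to 50 bases after a transcript start. The 4 shown are those of a member of the mevalonate entry step (Hmgcs1), a member with a large fall (Idi1), the feedback gene Insig1 and the member with the largest rise with TNFα (Acss2). Each is the 250 bases before the start, on the plus strand: Hmgcs1 at chr13:119690101-119690350, Idi1 at chr13:8885356-8885605, Insig1 at chr5:28071162-28071411 and Acss2 at chr2:155517793-155518042. Capitals mark CCAAT, the NF-Y box, on either strand (written ATTGG where it lies on the minus strand) and, in Hmgcs1, the letters TCACNCCAC of a sterol regulatory element.
Hmgcs1: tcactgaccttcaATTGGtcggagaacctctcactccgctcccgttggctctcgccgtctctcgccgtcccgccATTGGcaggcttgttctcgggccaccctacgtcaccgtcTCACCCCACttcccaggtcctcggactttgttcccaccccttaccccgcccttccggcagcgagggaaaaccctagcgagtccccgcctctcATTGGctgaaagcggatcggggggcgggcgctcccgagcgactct
Idi1: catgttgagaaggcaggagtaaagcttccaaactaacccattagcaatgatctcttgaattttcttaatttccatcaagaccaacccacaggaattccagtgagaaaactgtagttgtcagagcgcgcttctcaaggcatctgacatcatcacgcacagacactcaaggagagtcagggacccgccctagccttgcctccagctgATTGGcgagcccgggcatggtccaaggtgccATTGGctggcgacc
Insig1: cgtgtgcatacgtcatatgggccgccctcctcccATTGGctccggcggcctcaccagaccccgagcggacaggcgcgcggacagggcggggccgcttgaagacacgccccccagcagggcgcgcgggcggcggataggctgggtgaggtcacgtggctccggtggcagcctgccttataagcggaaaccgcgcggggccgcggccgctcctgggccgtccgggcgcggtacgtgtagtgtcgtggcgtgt
Acss2: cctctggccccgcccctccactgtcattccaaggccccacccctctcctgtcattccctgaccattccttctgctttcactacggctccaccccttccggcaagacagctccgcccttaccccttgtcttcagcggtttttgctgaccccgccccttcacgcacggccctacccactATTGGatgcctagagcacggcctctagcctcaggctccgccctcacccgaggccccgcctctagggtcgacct

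TCACNCCAC, searched on both strands, was found in 1 of the 34 member windows (2.94%), that of Hmgcs1, where it starts 137 bases before the transcript start, against 1.24% of all 32851 windows of the same length. CCAAT was in 64.7% of member windows and 37.4% of all windows, and it reached 21 of the 26 members (17 of 19 sterol and 4 of 7 fatty acid members). GGGCGG, the Sp1 box, was in 76.5% of member windows and 35.7% of all windows, and CACGTG, the E-box, in 17.6% and 7.15%. The 6 member windows with the E-box all belong to sterol members and include overlapping windows of Scap. The Hmgcs1 sterol element shares no base with its CCAAT boxes. These are matches of letters in a window and no measure of binding.

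The first feature of the data was how the members followed the replicate number. In 3 of the 4 groups the library numbered 2 was the lowest and the library numbered 4 the highest for most members. In TNFα libraries, number 2 was the lowest for 22 of 23 sterol and 10 of 10 fatty acid members, and number 4 the highest for 19 of 23 and 10 of 10. The mean of log2(CPM + 1) over the sterol members was 3.97, 3.43, 3.84 and 4.33 in TMP195+TNFα libraries 1 to 4, 3.56, 3.69, 3.54 and 3.69 in TPCA-1+TNFα libraries, 4.70, 3.77, 4.52 and 5.11 in TNFα libraries, and 4.31, 3.62, 4.03 and 5.02 in DMSO libraries. Its range was 0.89 in the TMP195+TNFα group, 0.15 in the TPCA-1+TNFα group, 1.34 in the TNFα group and 1.40 in the DMSO group. The order of the numbers was thus the same in TMP195+TNFα, TNFα and DMSO libraries and was not seen in TPCA-1+TNFα libraries. There the shallow library 2 was highest, while numbers 4, 1 and 3, at 3.69, 3.56 and 3.54, kept the order of the other groups within a narrow range.

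**Figure D1:**
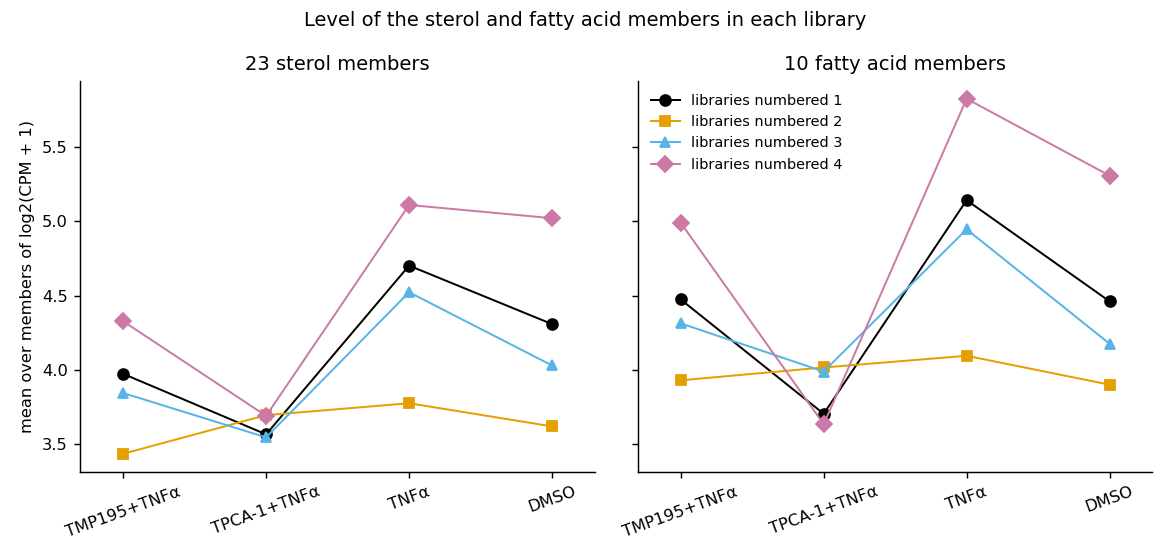
Mean of log2(CPM + 1) over the 23 sterol members (left) and the 10 fatty acid members (right) in each of the 16 libraries, with groups on the x axis and lines joining libraries of the same number. The lines spread apart in TMP195+TNFα, TNFα and DMSO cells, with number 4 on top and number 2 at the bottom, and come together in TPCA-1+TNFα cells.

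The fatty acid members showed the same order in the same 3 groups: their mean was 4.47, 3.93, 4.31 and 4.99 in TMP195+TNFα libraries 1 to 4, 3.70, 4.02, 3.99 and 3.63 in TPCA-1+TNFα libraries, 5.14, 4.09, 4.95 and 5.83 in TNFα libraries and 4.46, 3.90, 4.18 and 5.31 in DMSO libraries. In TPCA-1+TNFα libraries the order was turned, with number 4 the lowest. Taken member by member, the ratio of library 4 to library 2 had a median of 2.09 in TMP195+TNFα, 0.854 in TPCA-1+TNFα, 2.94 in TNFα and 2.79 in DMSO cells, against 1.00 to 1.01 over all 12612 genes in these groups. The ratio was above 2 for 54.5%, 3.03%, 75.8% and 75.8% of members in the same groups, and for 3.08%, 7.19%, 3.53% and 3.50% of all genes. It was largest for the delta-6 desaturase Fads2, at 19.5 in TMP195+TNFα, 21.2 in TNFα and 28.3 in DMSO cells. What differs between the numbers is not in the labels and was not tested. The median SD between the 4 libraries of a group on the log2 scale was 0.64 for sterol and 0.58 for fatty acid members in TNFα cells, against 0.18 for all genes tested, so group means of the members carried more error than those of most genes.

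Most of the module was lower with TPCA-1. Of the 33 members, 19 fell in TPCA-1+TNFα against TNFα cells and none rose (edgeR quasi-likelihood test, 16 libraries, Benjamini-Hochberg adjustment over 12612 genes); over all genes, 9.72% fell and 9.67% rose. By unadjusted p under 0.05, 20 members were lower and 1 higher; DESeq2 called 19 lower and 1, Scap, higher. The falls covered 13 of 23 sterol members and 6 of 10 fatty acid members. The median log2 fold change was -0.95 over the 33 members and 0.02 over all genes. The values of the 4 TPCA-1+TNFα libraries lay below all 4 TNFα libraries for 13 members, a pattern held by 9.75% of all genes.

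In the mevalonate pathway, which builds the isoprenoid units of cholesterol out of acetyl-CoA, 5 of 8 members fell. Hmgcs1, the HMG-CoA synthase, had 17.9, 10.3, 14.9 and 15.2 CPM in TPCA-1+TNFα libraries 1 to 4, against 54.7, 23.9, 41.4 and 52.6 CPM in TNFα libraries. The groups did not overlap, and the log2 fold change was -1.55 ± 0.29 (SE), adjusted p = 0.00112. Fdps, the farnesyl diphosphate synthase, had 2.25, 3.24, 2.87 and 4.13 CPM in TPCA-1+TNFα and 16, 4.76, 14.4 and 33.3 CPM in TNFα libraries, without overlap, a log2 fold change of -2.46 ± 0.58 (SE), adjusted p = 0.00659. Idi1, which interconverts the isoprenoid units, had 1.37, 1.08, 0.396 and 1.12 CPM in TPCA-1+TNFα and 7.96, 1.82, 4.14 and 5.36 CPM in TNFα libraries. Its highest TPCA-1+TNFα library stayed below its lowest TNFα library, and the change was -2.28 ± 0.54 (SE), adjusted p = 0.00670. The thiolase Acat2 (-2.03) and the squalene synthase Fdft1 (-1.61) fell too. The kinases Mvk (-0.71) and Pmvk (-0.07) and the decarboxylase Mvd (-0.91) did not pass the threshold, with adjusted p between 0.172 and 0.871.

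Of the 10 members that turn squalene into cholesterol, 7 fell. Hsd17b7, a sterol ketoreductase, had the smallest adjusted p of the module: 8.31, 4.86, 8.42 and 6.27 CPM in TPCA-1+TNFα libraries, against 29.7, 16.2, 24 and 31.8 CPM in TNFα libraries, a log2 fold change of -1.84 ± 0.27 (SE), adjusted p = 0.000142. Every TPCA-1+TNFα library was below every TNFα library. Cyp51, the lanosterol demethylase, had 9.73, 9.46, 5.65 and 7.34 CPM in TPCA-1+TNFα and 38.3, 11.5, 31.1 and 41.5 CPM in TNFα libraries (-1.94 ± 0.43 (SE), adjusted p = 0.00415). Sc5d, the lathosterol desaturase, had 33.6, 24.9, 29.8 and 34.4 CPM in TPCA-1+TNFα and 88.6, 38.7, 64.8 and 92.7 CPM in TNFα libraries (-1.21 ± 0.26 (SE), adjusted p = 0.00378). Neither of these genes overlapped between the groups. The C4-demethylation enzymes Msmo1, at 62.1, 34.2, 41.7 and 40.6 CPM in TPCA-1+TNFα and 148, 60.6, 103 and 131 CPM in TNFα libraries (-1.30 ± 0.29 (SE), adjusted p = 0.00456), and Nsdhl, at 21.9, 16.2, 20.4 and 20.1 CPM in TPCA-1+TNFα and 47.9, 26.2, 33.4 and 55.6 CPM in TNFα libraries (-1.04 ± 0.24 (SE), adjusted p = 0.00551), fell as well. Sqle, the squalene epoxidase and a slow step of the pathway, had 22.4, 19.5, 19.4 and 15.7 CPM in TPCA-1+TNFα and 58.7, 24.7, 48.1 and 72.7 CPM in TNFα libraries (-1.41 ± 0.35 (SE), adjusted p = 0.00974). Lss, the lanosterol synthase, fell by 1.37 on the log2 scale; without TNFα library 4 its adjusted p was 0.0575. The other 3 of the 10, the sterol reductases Tm7sf2 (-0.60) and Dhcr7 (-0.39) and the sterol isomerase Ebp (0.18), did not pass the threshold.

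Of the 5 regulators and carriers 1 fell. It was Stard4, a carrier that moves cholesterol between membranes, with 9.87, 8.38, 11.2 and 9.77 CPM in TPCA-1+TNFα libraries, against 34.8, 16.2, 28.7 and 40.9 CPM in TNFα libraries, without overlap (-1.61 ± 0.33 (SE), adjusted p = 0.00255). Srebf2 had 40.8, 45.5, 48 and 50.3 CPM in TPCA-1+TNFα and 54.8, 36.7, 63.6 and 109 CPM in TNFα libraries (-0.52 ± 0.35 (SE), adjusted p = 0.308), and the groups overlapped. Insig1, which retains the SREBP escort and is itself an SREBP target, had 20.4, 13.9, 16.8 and 31.3 CPM in TPCA-1+TNFα and 37.5, 18.3, 32.9 and 54.7 CPM in TNFα libraries (-0.78 ± 0.38 (SE), adjusted p = 0.166), also with overlap. Insig2, the other retention protein, was not called (-0.20). Scap, the escort, had 25.8, 43.1, 39.2 and 38.6 CPM in TPCA-1+TNFα and 21.3, 19.7, 23.7 and 33.5 CPM in TNFα libraries (0.57 ± 0.21 (SE), adjusted p = 0.0665); the log2 fold change was positive and passed the threshold without TPCA-1+TNFα library 1, without TNFα library 4 and without DMSO library 4.

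**Figure D2:**
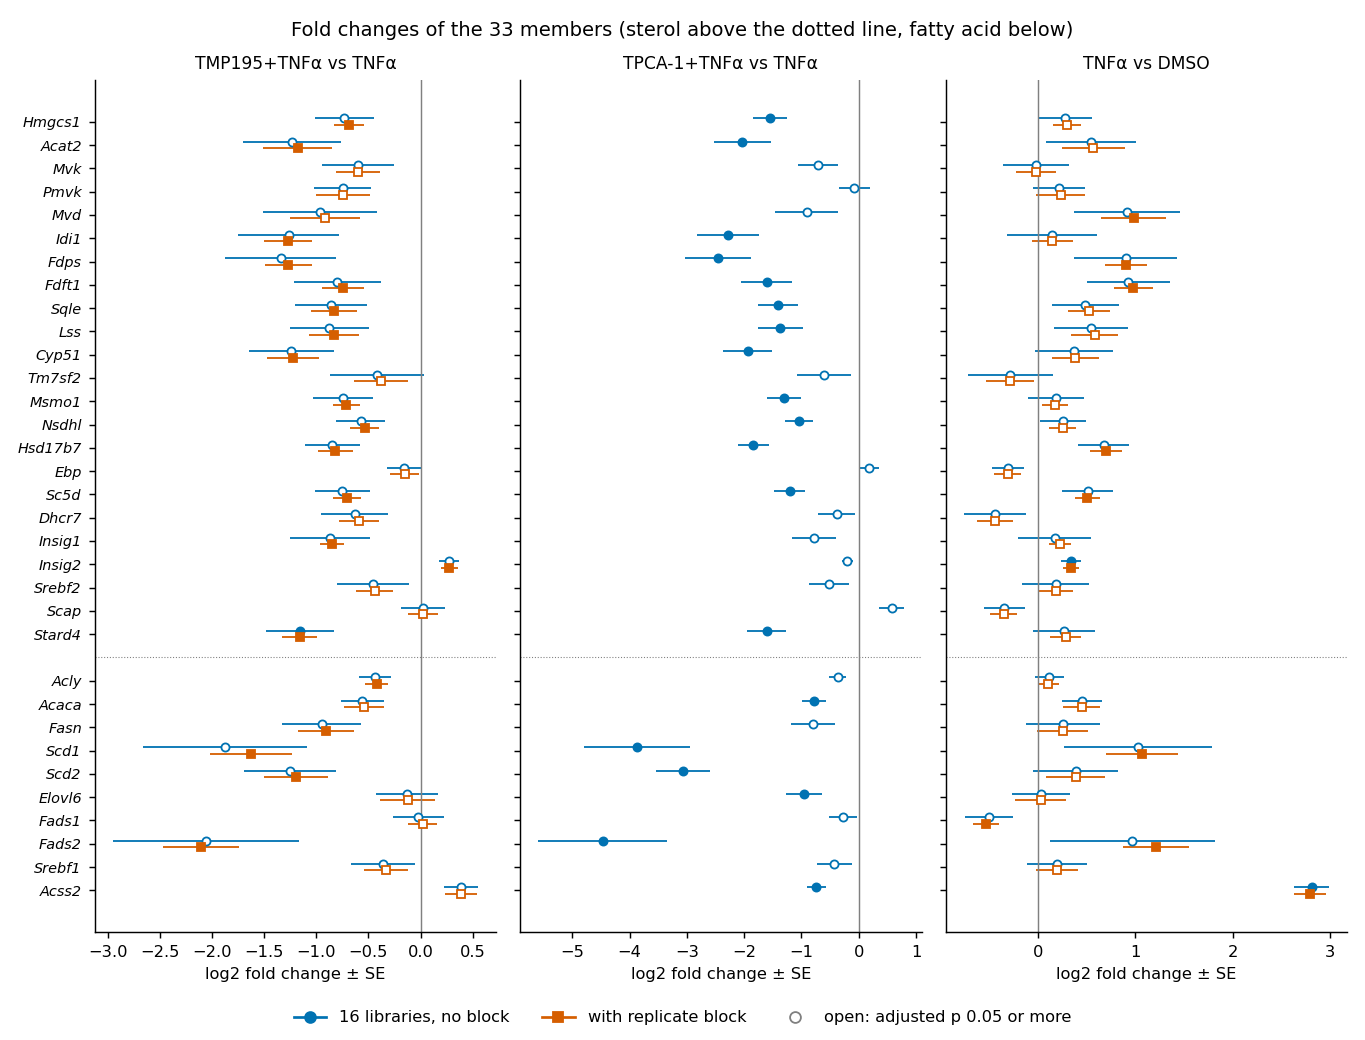
Log2 fold change ± SE of each member in TMP195+TNFα against TNFα, TPCA-1+TNFα against TNFα and TNFα against DMSO cells (n = 4 libraries a group). Filled symbols passed an adjusted p of 0.05, circles without and squares with the replicate number in the fit of all 16 libraries (shown for the 2 comparisons whose numbers pair the libraries); in TPCA-1+TNFα against TNFα cells the desaturases Fads2, Scd1 and Scd2 lie farthest left, and in TNFα against DMSO cells Acss2 lies farthest right.

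The largest changes of the module were in the fatty acid desaturases, which add double bonds to fatty acids. Scd2 had 28.4, 44.2, 49.1 and 30.5 CPM in TPCA-1+TNFα and 359, 107, 298 and 513 CPM in TNFα libraries, 8.42-fold lower (-3.07 ± 0.47 (SE), adjusted p = 0.000193), with all 4 TPCA-1+TNFα libraries below the TNFα libraries. Scd1 had 1.81, 1.22, 1.49 and 0.827 CPM in TPCA-1+TNFα and 20.3, 2.40, 9.63 and 47.1 CPM in TNFα libraries, 14.6-fold lower (-3.87 ± 0.92 (SE), adjusted p = 0.00685). Fads2, given for the size of its change after its values were seen, had 0.684, 0.676, 0.644 and 0.340 CPM in TPCA-1+TNFα and 11.4, 1.42, 8.28 and 30.2 CPM in TNFα libraries, 22.2-fold lower (-4.47 ± 1.13 (SE), adjusted p = 0.00992). The groups of Scd1 and Fads2 were separated as well, although TNFα library 2 came close. The last 2 folds moved with TNFα library 4: without it the log2 fold change was -2.99 for Scd1 (adjusted p = 0.0209) and -3.61 for Fads2 (adjusted p = 0.0262). The Fads2 and Scd1 values rest on few reads in TPCA-1+TNFα cells: Fads2 had 14, 5, 13 and 7 reads in the TPCA-1+TNFα libraries, where 3 reads are worth 0.0949 to 0.401 CPM over the 16 libraries. Acaca, the acetyl-CoA carboxylase, fell by 0.78 on the log2 scale (adjusted p = 0.0564 without TPCA-1+TNFα library 4), and Elovl6, the elongase, by 0.95, a call lost without any of 9 libraries (adjusted p up to 0.142) and in a fit of the 8 TPCA-1+TNFα and TNFα libraries alone (adjusted p = 0.0825). Acss2 fell by 0.74. Fasn, the fatty acid synthase, had 22.5, 36.9, 35 and 22.5 CPM in TPCA-1+TNFα and 40.0, 28.2, 43.2 and 91.4 CPM in TNFα libraries (-0.80 ± 0.38 (SE), adjusted p = 0.154), and the groups overlapped. Srebf1 had 24.5, 46.9, 36.5 and 34.1 CPM in TPCA-1+TNFα and 40.3, 29.2, 43 and 77.2 CPM in TNFα libraries (-0.43 ± 0.31 (SE), adjusted p = 0.352), with overlap. Acly (-0.37) and the other front-end desaturase Fads1 (-0.28) were not called.

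Set by number, the mean difference of TPCA-1+TNFα from TNFα was near 0 in libraries 2 and large in the others. The sterol mean of log2(CPM + 1) differed by -1.14, -0.08, -0.98 and -1.42 in numbers 1 to 4, and the fatty acid mean by -1.44, -0.08, -0.96 and -2.19. In number 2 the members went both ways: 17 of 33 were lower and the rest higher, with differences between -1.56 (Hsd17b7) and 1.09 (Scap). The number 2 difference was the least negative of the 4 for 32 of 33 members, and 31 members were lower in all of numbers 1, 3 and 4. The share of all genes with either pattern was not counted, so neither can be called particular to the members. TPCA-1+TNFα library 2 is the shallow library with the high unmapped share, and TNFα library 2 is the one with the lowest members in its group. The part of either library in the small mean difference was not tested. Without TPCA-1+TNFα library 2, and without TNFα library 2, the number of members that fell stayed within 17 to 20 in the fit without the block; with the block 22 fell, and 30 without TPCA-1+TNFα library 2.

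Markers of cell types moved beside these falls. In TPCA-1+TNFα against TNFα cells 4 of 8 macrophage markers (Csf1r, Fcgr1, Itgam and Mertk) and both tested neutrophil markers (S100a8 and Csf3r) were lower, and no marker of these 2 lists was higher. The single tested markers of lymphocytes (Ighm), dendritic cells (Zbtb46) and endothelium (Pecam1) were higher. Pecam1 had 15.4, 38.6, 16.6 and 25.7 CPM in TPCA-1+TNFα and 3.47, 6.97, 6.41 and 5.55 CPM in TNFα libraries, while the other endothelial markers, Cdh5 and Kdr, were too low to be tested. In TMP195+TNFα against TNFα cells the macrophage marker Adgre1 and Ighm were lower. In TNFα against DMSO cells the macrophage markers Cd68, Fcgr1 and Mertk and Ighm were lower, and Csf1r and S100a8 were higher. The part of these shifts in the results was not tested.

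With TMP195 the median change was smaller, and what passed the threshold depended on whether the replicate number entered the fit. Without it, 1 member of 33 (Stard4) fell and none rose in TMP195+TNFα against TNFα cells, where 3.0% of all genes fell and 2.95% rose; by unadjusted p under 0.05, 20 members were lower and 2 higher, and DESeq2 called 4 lower (Stard4, Hsd17b7, Sc5d and Acly) and none higher. With the replicate number as a block over all 16 libraries, 19 members fell and 1, Insig2, rose, where 6.56% of all genes fell and 6.91% rose. Insig2 was not called in the blocked fit on leaving out any of 11 libraries. The 19 were 14 of 23 sterol and 5 of 10 fatty acid members. That fit also holds the TPCA-1+TNFα libraries, whose numbers did not meet the pairing rule. With the block over the 12 libraries of the other 3 groups, a fit chosen after the data were seen and called the 12-library fit here, 27 members fell and 2, Insig2 and Acss2, rose, where 15.8% of 12361 genes fell and 16.2% rose. The 27 were 8 of 8 mevalonate members, 9 of 10 squalene-to-cholesterol members, 3 of 5 regulators and carriers and 7 of 10 fatty acid members. Leaving out 1 of the 12 libraries gave 25 to 28 lower and 2 higher members. The median log2 fold change was -0.75 without and -0.71 with the block, and 0.02 over all genes in both. In same-number pairs, 28 members were lower in TMP195+TNFα in all 4 pairs, a pattern held by 23.1% of all genes.

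Stard4 had 17.2, 7.13, 11.6 and 18.2 CPM in TMP195+TNFα libraries 1 to 4, against 34.8, 16.2, 28.7 and 40.9 CPM in TNFα libraries. The groups overlapped through TNFα library 2, while the 4 same-number differences of log2(CPM + 1) were -0.97, -1.09, -1.23 and -1.13. The log2 fold change was -1.15 ± 0.33 (SE), adjusted p = 0.0441 without the block and -1.16 ± 0.17 (SE), adjusted p = 0.000268 with it. Without the block the call was lost on leaving out any of 9 libraries (adjusted p up to 0.131) and in a fit of the 8 TMP195+TNFα and TNFα libraries alone (adjusted p = 0.0569). Without the block 6 members fell when TNFα library 2 was left out, 2 when DMSO library 2 or DMSO library 4 was, and none when any of the 9 was; with the block 10 fell without TNFα library 4 or TMP195+TNFα library 4, and 12 without TNFα library 1.

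In the blocked fit 5 of 8 mevalonate members fell. Idi1 had 3.49, 0.750, 1.90 and 1.87 CPM in TMP195+TNFα and 7.96, 1.82, 4.14 and 5.36 CPM in TNFα libraries, with overlap between the groups and same-number differences of -1.0, -0.69, -0.82 and -1.15 (-1.27 ± 0.49 (SE), adjusted p = 0.148 without the block, -1.27 ± 0.23 (SE), adjusted p = 0.00182 with it). Fdps had 6.22, 2.91, 5.66 and 12.1 CPM in TMP195+TNFα and 16, 4.76, 14.4 and 33.3 CPM in TNFα libraries, again overlapping but lower in every pair (adjusted p = 0.164 without and 0.00138 with the block). Hmgcs1 had 26.2, 19.5, 27.2 and 31.1 CPM in TMP195+TNFα and 54.7, 23.9, 41.4 and 52.6 CPM in TNFα libraries (adjusted p = 0.148 without and 0.00490 with the block). Its highest TMP195+TNFα library, number 4, lay above TNFα library 2 and below the other TNFα libraries. Acat2 and Fdft1 fell as well with the block. Mvk, Pmvk and Mvd did not pass with all 16 libraries, with log2 fold changes of -0.60, -0.74 and -0.92, and fell in the 12-library fit (adjusted p = 0.00133, 0.00771 and 0.000627). Pmvk was the only lower member whose groups did not overlap, a pattern held by 7.00% of all genes.

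Of the 10 squalene-to-cholesterol members 7 fell with the block. Msmo1 had 87.5, 45.7, 57.9 and 74 CPM in TMP195+TNFα and 148, 60.6, 103 and 131 CPM in TNFα libraries (-0.71 ± 0.13 (SE), adjusted p = 0.00182 with the block, adjusted p = 0.153 without). Sc5d had 42.9, 33.9, 37.6 and 54.8 CPM in TMP195+TNFα and 88.6, 38.7, 64.8 and 92.7 CPM in TNFα libraries (-0.71 ± 0.13 (SE), adjusted p = 0.00196 with the block, adjusted p = 0.104 without). Cyp51 had 16.6, 6.09, 11.4 and 17.7 CPM in TMP195+TNFα and 38.3, 11.5, 31.1 and 41.5 CPM in TNFα libraries (-1.22 ± 0.25 (SE), adjusted p = 0.00360 with the block, adjusted p = 0.0884 without). All of these were lower in TMP195+TNFα cells in every same-number pair. Sqle had 30.5, 19.1, 22.7 and 40.0 CPM in TMP195+TNFα and 58.7, 24.7, 48.1 and 72.7 CPM in TNFα libraries (-0.83 ± 0.22 (SE), adjusted p = 0.0201 with the block, adjusted p = 0.167 without). Hsd17b7 (-0.82), Lss (-0.83) and Nsdhl (-0.53) also fell, and Ebp (-0.15), Tm7sf2 (-0.38) and Dhcr7 (-0.59) did not pass. In the 12-library fit Tm7sf2 (adjusted p = 0.0482) and Dhcr7 (adjusted p = 0.000312) fell as well, and Ebp did not pass (adjusted p = 0.0539).

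Among the regulators, Insig1 had 22.3, 12, 15.7 and 28.4 CPM in TMP195+TNFα and 37.5, 18.3, 32.9 and 54.7 CPM in TNFα libraries. It was lower in every pair, with differences of -0.73, -0.57, -1.03 and -0.92. In the blocked fit of all 16 libraries it had the smallest adjusted p of the module (-0.85 ± 0.11 (SE), adjusted p = 0.000177), against an adjusted p of 0.221 without the block. In the 12-library fit its adjusted p was 1.24e-06, and Stard4 had the smallest of the module there (adjusted p = 3.69e-08). Insig2 went the other way: 32, 33.9, 36.3 and 34.5 CPM in TMP195+TNFα libraries and 27.1, 30.4, 29.2 and 26.4 CPM in TNFα libraries, every TMP195+TNFα library above every TNFα library (0.28 ± 0.08 (SE), adjusted p = 0.0394 with the block, adjusted p = 0.118 without). Srebf2 had 46.1, 27.1, 43.8 and 76 CPM in TMP195+TNFα and 54.8, 36.7, 63.6 and 109 CPM in TNFα libraries (-0.44 ± 0.18 (SE), adjusted p = 0.119 with the block), lower in every pair with differences of -0.25, -0.42, -0.53 and -0.52 but not past the threshold with all 16 libraries; it fell in the 12-library fit (-0.45 ± 0.07 (SE), adjusted p = 0.000136). Scap was close to even, at 20.7, 20.1, 26.3 and 32.7 CPM in TMP195+TNFα and 21.3, 19.7, 23.7 and 33.5 CPM in TNFα libraries (0.02 ± 0.14 (SE), adjusted p = 0.947 with the block).

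**Figure D3:**
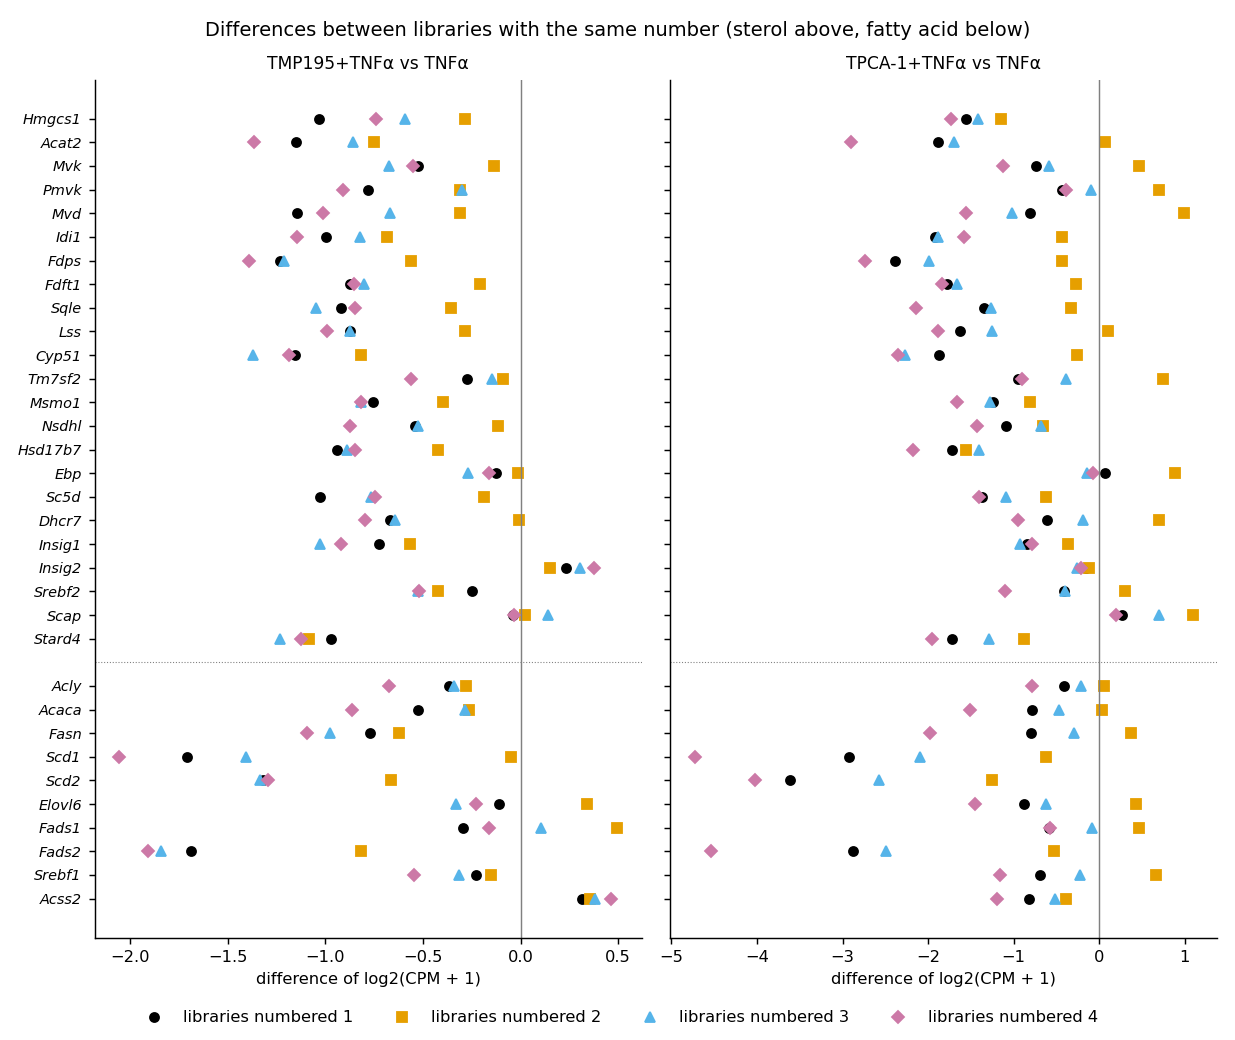
Difference of log2(CPM + 1) between libraries with the same number, for each member, TMP195+TNFα minus TNFα (left) and TPCA-1+TNFα minus TNFα (right); the x axes differ in scale. In the left panel most members are below 0 in all 4 numbers, and in the right panel the number 2 difference stands to the right of the others for 32 of 33 members. The share of all genes with the latter pattern was not counted.

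Of the 10 fatty acid members, 5 fell with TMP195 in the 16-library fit with the block. Fads2 had 2.84, 0.375, 1.59 and 7.31 CPM in TMP195+TNFα and 11.4, 1.42, 8.28 and 30.2 CPM in TNFα libraries, with same-number differences of -1.69, -0.82, -1.84 and -1.91 (-2.11 ± 0.37 (SE), adjusted p = 0.00122 with the block, adjusted p = 0.213 without). Scd1 had 5.51, 2.30, 3.01 and 10.6 CPM in TMP195+TNFα and 20.3, 2.40, 9.63 and 47.1 CPM in TNFα libraries (-1.62 ± 0.39 (SE), adjusted p = 0.0119 with the block), and in number 2 the difference was close to 0. Scd2 had 143, 67.3, 118 and 208 CPM in TMP195+TNFα and 359, 107, 298 and 513 CPM in TNFα libraries (-1.20 ± 0.31 (SE), adjusted p = 0.0171 with the block). Fasn had 23, 18, 21.5 and 42.3 CPM in TMP195+TNFα and 40.0, 28.2, 43.2 and 91.4 CPM in TNFα libraries (-0.91 ± 0.27 (SE), adjusted p = 0.0341 with the block, adjusted p = 0.168 without). Acly fell by 0.42 with the block, and Acaca (-0.55), Elovl6 (-0.12) and Fads1 (0.02) did not pass. Srebf1 had 34.3, 26.2, 34.3 and 52.6 CPM in TMP195+TNFα and 40.3, 29.2, 43 and 77.2 CPM in TNFα libraries (-0.33 ± 0.21 (SE), adjusted p = 0.378 with the block). Acss2 was higher in all 4 pairs, by 0.32, 0.36, 0.38 and 0.46, and did not pass with all 16 libraries (adjusted p = 0.107 with the block). In the 12-library fit Acaca (adjusted p = 0.00161) and Srebf1 (adjusted p = 0.00212) fell and Acss2 rose (adjusted p = 0.00467), while Elovl6 and Fads1 did not pass. Over the set, the sterol mean of log2(CPM + 1) differed by -0.73, -0.34, -0.68 and -0.78 in numbers 1 to 4. The fatty acid mean differed by -0.67, -0.17, -0.63 and -0.84, or by -0.78, -0.22, -0.75 and -0.98 without Acss2. On this scale the falls were smallest in number 2 with this inhibitor too. The added 1 shrinks differences most for members at low CPM, such as Fads2 in number 2. The part of this in the small number 2 differences was not tested.

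**Figure D4:**
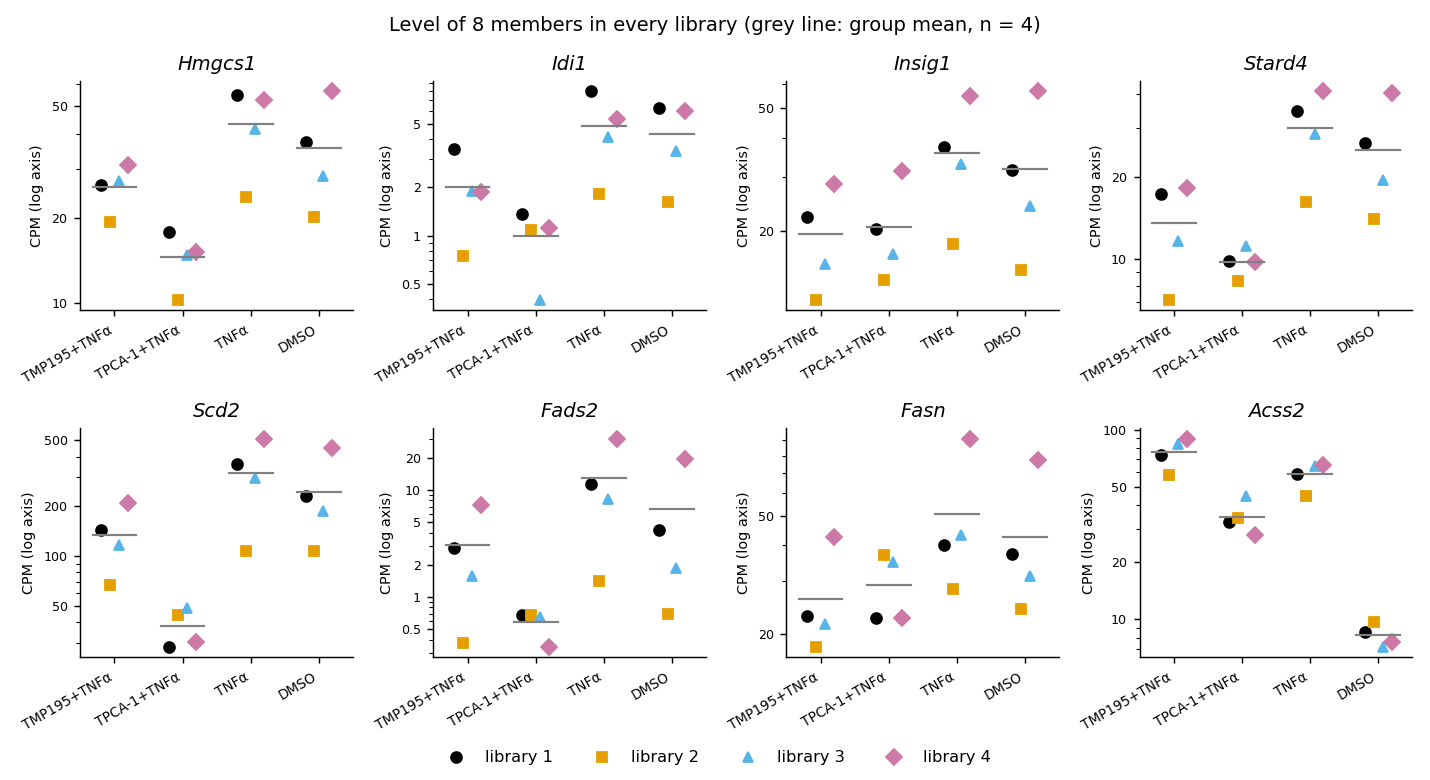
CPM of 8 members in each of the 16 libraries on log axes, with the replicate number as symbol and the mean of 4 libraries as a grey line. Scd2, Fads2 and Hmgcs1 are lowest in TPCA-1+TNFα cells, number 2 is the lowest library for Hmgcs1, Idi1, Insig1 and Stard4 in the other groups, and Acss2 is at 27.8 CPM or more in the 3 groups with TNFα and at 7.15 to 9.71 CPM in DMSO libraries.

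Set directly against each other, TMP195+TNFα cells had more of 5 members than TPCA-1+TNFα cells and less of none (edgeR, without the block), where 13.1% of all genes were higher and 12.6% lower; by unadjusted p under 0.05, 7 were higher and 2 lower, and DESeq2 called 6 higher and 1, Scap, lower. The 5 were Acss2, Insig2, Scd2, Hsd17b7 and Hmgcs1. Acss2 had 73.2, 57.8, 83.8 and 89.7 CPM in TMP195+TNFα libraries, against 32.6, 34.1, 44.6 and 27.8 CPM in TPCA-1+TNFα libraries, without overlap (1.13 ± 0.17 (SE), adjusted p = 8.97e-05). Insig2 had 32, 33.9, 36.3 and 34.5 CPM in TMP195+TNFα and 24.1, 27.8, 24.3 and 22.6 CPM in TPCA-1+TNFα libraries, also without overlap (0.47 ± 0.10 (SE), adjusted p = 0.00199). Scd2 had 143, 67.3, 118 and 208 CPM in TMP195+TNFα and 28.4, 44.2, 49.1 and 30.5 CPM in TPCA-1+TNFα libraries, every TMP195+TNFα library again the higher (1.82 ± 0.45 (SE), adjusted p = 0.00676). Hsd17b7 differed by 0.99 ± 0.27 (SE), adjusted p = 0.0129. Hmgcs1 differed by 0.82 ± 0.29 (SE), adjusted p = 0.0467, a call lost on leaving out any of 8 libraries (adjusted p up to 0.119) and on counts read without regard to strand. Leaving out TPCA-1+TNFα library 1 gave 2 lower members and leaving out DMSO library 4, TNFα library 4 or TMP195+TNFα library 4 gave 1. For Srebf2 (0.07 ± 0.35 (SE), adjusted p = 0.912), Srebf1 (0.06 ± 0.31 (SE), adjusted p = 0.904), Insig1 (-0.09 ± 0.39 (SE), adjusted p = 0.890), Fasn (-0.15 ± 0.38 (SE), adjusted p = 0.809), Sqle (0.55 ± 0.35 (SE), adjusted p = 0.267) and Scap (-0.55 ± 0.21 (SE), adjusted p = 0.0642) no difference was called. The doses of the inhibitors, 5 µM TMP195 and 500 nM TPCA-1, are not matched.

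TNFα alone raised 2 members over DMSO and lowered none, where 10.9% of all genes rose and 12.4% fell; by unadjusted p under 0.05, 5 members were higher and none lower, and DESeq2 called 3 higher and none lower. With the replicate block, 9 members rose and 1 fell, where 15.1% of all genes rose and 16.9% fell. In the 12-library fit, 22 members rose and 4 fell, where 25.2% of genes rose and 25.6% fell; leaving out 1 of the 12 libraries gave 17 to 23 higher and 4 lower. Acss2, which makes acetyl-CoA out of acetate, changed most: 58.5, 45, 64.2 and 64.8 CPM in TNFα libraries, against 8.62, 9.71, 7.15 and 7.65 CPM in DMSO libraries, 7.02-fold higher (2.81 ± 0.18 (SE), adjusted p = 1.09e-08). Every TNFα library was above every DMSO library. Insig2 had 27.1, 30.4, 29.2 and 26.4 CPM in TNFα and 23.8, 24.1, 22.3 and 19.2 CPM in DMSO libraries, without overlap (0.34 ± 0.10 (SE), adjusted p = 0.0181); its call was lost without TNFα library 2, TNFα library 3 or DMSO library 4 (adjusted p up to 0.0622) and when genes of low count were kept in the fit (adjusted p = 0.0925).

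The 7 further members that rose with the block over 16 libraries were 3 of the mevalonate pathway, Fdft1 (0.98 ± 0.20 (SE), adjusted p = 0.00137), Fdps (0.90 ± 0.22 (SE), adjusted p = 0.00457) and Mvd (0.98 ± 0.34 (SE), adjusted p = 0.0347), 2 of the squalene-to-cholesterol steps, Hsd17b7 and Sc5d, and the desaturases Fads2 (1.21 ± 0.34 (SE), adjusted p = 0.0121) and Scd1 (1.07 ± 0.37 (SE), adjusted p = 0.0387). Fdft1 had 34.9, 11.9, 26.3 and 47.9 CPM in TNFα libraries, against 17.1, 6.90, 9.34 and 30.3 CPM in DMSO libraries. The groups overlapped, and TNFα was the higher in every pair. Fads1 fell in the blocked fit: 32, 15.9, 25.9 and 42.9 CPM in TNFα and 42.8, 27.8, 42 and 52.7 CPM in DMSO libraries (-0.54 ± 0.14 (SE), adjusted p = 0.00613). Of the regulators, Insig2 was called in both 16-library fits. Srebf2, Srebf1, Insig1 and Scap, like Fasn and Sqle, were called in neither: with the block, Srebf2 was at 0.19 ± 0.18 (SE), adjusted p = 0.462, Srebf1 at 0.19 ± 0.21 (SE), adjusted p = 0.538, Insig1 at 0.22 ± 0.11 (SE), adjusted p = 0.153, Scap at -0.35 ± 0.14 (SE), adjusted p = 0.0679, Fasn at 0.25 ± 0.26 (SE), adjusted p = 0.510 and Sqle at 0.52 ± 0.22 (SE), adjusted p = 0.0831. All 6 passed in the 12-library fit, Srebf2 (0.20 ± 0.07 (SE), adjusted p = 0.0287), Srebf1 (adjusted p = 0.0293), Insig1 (adjusted p = 0.0402), Fasn (adjusted p = 0.00483) and Sqle (0.54 ± 0.10 (SE), adjusted p = 0.000308) upward and Scap (-0.34 ± 0.07 (SE), adjusted p = 0.000589) downward. The other falls in that fit were Fads1, Ebp (-0.31 ± 0.06 (SE), adjusted p = 0.000183) and Dhcr7 (-0.43 ± 0.10 (SE), adjusted p = 0.00134). DMSO library 4 weighed on the 16-library counts: without it 11 members rose in the fit without the block and 15 with it. Without the block, 4 rose without TNFα library 2 and 1 without TNFα library 3, and 1 fell without TNFα library 4; with the block, 14 rose and 4 fell without TPCA-1+TNFα library 2, 3 fell without TPCA-1+TNFα library 4 and 2 without DMSO library 3.

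Against DMSO, more members fell than rose with TPCA-1 and TNFα. In TPCA-1+TNFα cells 13 members fell and 1, Acss2, rose, where 15.5% of all genes fell and 14.8% rose; 7 fell without DMSO library 4. Scd2 fell to 28.4, 44.2, 49.1 and 30.5 CPM in TPCA-1+TNFα libraries, against 232, 108, 187 and 451 CPM in DMSO libraries (-2.69 ± 0.47 (SE), adjusted p = 0.000307). Hmgcs1 had 17.9, 10.3, 14.9 and 15.2 CPM in TPCA-1+TNFα and 37.5, 20.3, 28.2 and 56.5 CPM in DMSO libraries (-1.27 ± 0.29 (SE), adjusted p = 0.00297). Both were separated from DMSO in every library. Hsd17b7 (-1.16), Stard4 (-1.34), Idi1 (-2.13), Msmo1 (-1.12), Cyp51 (-1.58), Nsdhl (-0.79), Fads1 (-0.78), Scd1 (-2.85), Fads2 (-3.50), Acat2 (-1.49) and Elovl6 (-0.92) were the other falls on the log2 scale. The calls of Scd1, Fads2, Nsdhl, Acat2, Fads1 and Elovl6 were each lost without DMSO library 4 and without 1 to 4 other libraries, with adjusted p up to 0.159; without that library the log2 fold change was -1.64 for Scd1 and -1.97 for Fads2. The Elovl6 call was also lost in a fit of the 8 TPCA-1+TNFα and DMSO libraries alone (adjusted p = 0.0599). Acss2 stayed above DMSO (2.07 ± 0.18 (SE), adjusted p = 2.05e-07).

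In TMP195+TNFα cells 2 members fell against DMSO, Dhcr7 (-1.07 ± 0.32 (SE), adjusted p = 0.0196) and Ebp (-0.47 ± 0.16 (SE), adjusted p = 0.0419), and 2 rose, Acss2 (3.20 ± 0.18 (SE), adjusted p = 5.43e-09) and Insig2 (0.61 ± 0.10 (SE), adjusted p = 0.000143), where 13.9% of all genes fell and 13.6% rose. With the block 11 fell and the same count of 2 rose, where 18.8% of all genes fell and 17.9% rose. In the 12-library fit 23 fell and 2 rose, where 26.8% of genes fell and 26.9% rose; leaving out 1 of the 12 libraries gave 16 to 25 lower and 2 to 3 higher. Dhcr7, the last enzyme of cholesterol synthesis, had 14.2, 12.5, 14.1 and 23.2 CPM in TMP195+TNFα libraries, against 30.3, 22.2, 24.9 and 57.6 CPM in DMSO libraries. The groups overlapped by library 4 of TMP195+TNFα and library 2 of DMSO. Ebp, the sterol isomerase, had 29.1, 27.7, 32 and 36.9 CPM in TMP195+TNFα and 38, 36.4, 46.7 and 53 CPM in DMSO libraries. The Dhcr7 call was lost without any of 4 libraries (adjusted p up to 0.0997) and the Ebp call without any of 5 (up to 0.133). No member fell without TMP195+TNFα library 2, TMP195+TNFα library 3 or DMSO library 4, and 5 fell without DMSO library 2; with the block, 6 fell without DMSO library 4 and 18 without TPCA-1+TNFα library 2. All comparisons with TNFα share the TNFα libraries, and all with DMSO the DMSO libraries.

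Sterol and fatty acid members were set side by side in each comparison, with no test of the difference between the lists. In TPCA-1+TNFα against TNFα cells the median log2 fold change was -1.21 for sterol (range -2.46 to 0.57) and -0.79 for fatty acid members (-4.47 to -0.28), with 13 of 23 and 6 of 10 called. In TMP195+TNFα against TNFα cells, with the block, it was -0.74 for sterol (-1.27 to 0.28) and -0.48 for fatty acid members (-2.11 to 0.39), with 14 of 23 and 5 of 10 called lower, or 20 of 23 and 7 of 10 in the 12-library fit. In TNFα against DMSO cells, with the block, it was 0.28 for sterol (-0.44 to 0.98) and 0.32 for fatty acid members (-0.54 to 2.79), with 6 of 23 and 3 of 10 called higher, or 15 of 23 and 7 of 10 in the 12-library fit. Within the sterol members the median in TPCA-1+TNFα against TNFα cells was -1.58 for the mevalonate pathway, -1.26 for the squalene-to-cholesterol steps and -0.52 for the regulators and carrier. Both extremes of the module were fatty acid members: the desaturases Fads2, Scd1 and Scd2 had the largest falls with TPCA-1, while Acss2 had the largest rise with TNFα.

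Other genes of sterol and fatty acid handling were read by a list of 58, of which 53 were tested. In TPCA-1+TNFα against TNFα cells 11 fell and 2 rose, where 9.72% of all genes fell and 9.67% rose, with a median log2 fold change of -0.18 against -0.95 for the 33 members. The 5 with the smallest adjusted p were the elongation enzyme Hsd17b12 (-0.99 ± 0.12 (SE), adjusted p = 1.45e-05), the acyl-CoA synthetase Acsl4 (-1.11 ± 0.17 (SE), adjusted p = 0.000146), the sterol exporter Abca1 (-0.76 ± 0.15 (SE), adjusted p = 0.00157), the lysosomal cholesterol carrier Npc2 (-0.53 ± 0.11 (SE), adjusted p = 0.00270) and the ubiquitin ligase Rnf145 (-0.63 ± 0.13 (SE), adjusted p = 0.00322). Abca1 had 273, 225, 272 and 234 CPM in TPCA-1+TNFα and 496, 452, 428 and 323 CPM in TNFα libraries, without overlap. In TMP195+TNFα against TNFα cells the cholesterol ester hydrolase Nceh1 rose (0.63 ± 0.11 (SE), adjusted p = 0.00229) and Rnf145 (-0.51 ± 0.13 (SE), adjusted p = 0.0299) and Erlin1 (-0.34 ± 0.09 (SE), adjusted p = 0.0359), which takes part in holding SREBP in the membrane, fell, where 2.95% of all genes rose and 3.0% fell; with the block 5 rose and 6 fell, where 6.91% rose and 6.56% fell, and the median was -0.11 in both fits. In TNFα against DMSO cells 5 rose and 8 fell, where 10.9% of all genes rose and 12.4% fell, or 9 and 10 with the block, where 15.1% rose and 16.9% fell; the median was -0.01. There the sterol hydroxylase Cyp27a1 and Nceh1 (-1.10 ± 0.11 (SE), adjusted p = 8.15e-07) fell, and the malic enzyme Me1 (1.32 ± 0.19 (SE), adjusted p = 5.49e-05), the LXR target Mylip (0.75 ± 0.11 (SE), adjusted p = 7.46e-05) and Hsd17b12 (0.64 ± 0.12 (SE), adjusted p = 0.000548) rose.

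Of the genes close in sequence to members, Acat3 had 0 to 4, Scd3 0 to 2 and Scd4 0 to 12 reads per library. Scd1 had 37, 9, 30 and 17 reads in the TPCA-1+TNFα libraries, and the effect of reads shared between copies on its values was not tested. The ratio of unstranded to stranded counts lay between 0.738 (Acss2) and 1.19 (Sqle), and of the counts of members called, those on unstranded counts stayed within 1 of those on stranded counts in all 6 comparisons.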

How the data were processed

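RNA-seq libraries of 16 macrophage samples, 4 in each of 4 groups, were compared. The deposited files hold read counts per gene for each strand setting; the authors aligned reads with STAR 2.6.1d to GRCm38 (mm10), per the submitters' processing notes, and the counts of the gene-strand column were used. Other quality or trimming steps are not given in the sources used here. The GENCODE M21 annotation matched 54809 of 54838 identifiers. Members and lists were chosen with earlier results of these data known.

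Genes were kept by filterByExpr (12612 genes), scaled by TMM and tested with the edgeR 4.0.16 quasi-likelihood test in R 4.3.3, 16 libraries in 1 model, with two-sided p-values adjusted by Benjamini-Hochberg and a threshold of 0.05. SEs were taken from the fold change and its F statistic. Levels are counts scaled to the TMM-adjusted library total (CPM), log2(CPM + 1) in pair differences, and RPKM by exon length. The added 1 makes the pair differences of members at low CPM smaller than their log2 ratios. A floor of 3 counts was worth 0.0949 to 0.401 CPM; it and the counting error cover counting only. The fit was tested on simulated counts. Alternatives were the replicate number as a block, DESeq2 1.42.0, DESeq2 size factors, no filter, counts without strand, 8 libraries only, and leaving out each library.

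Same-number libraries deviated together in the TMP195+TNFα, TNFα and DMSO groups (12 of 12 correlations of deviations from group means above 0.1, between 0.27 and 0.681), so the numbers were taken to pair these groups. For TPCA-1+TNFα 4 of 12 such correlations were not above 0.1, so its comparisons are read without the block. For its library 2 they were 0.0196 with DMSO, -0.0430 with TNFα and -0.0066 with TMP195+TNFα library 2. The other was 0.0864, between the TPCA-1+TNFα and TMP195+TNFα libraries numbered 4. The rest lay between 0.127 and 0.511. Between different numbers the correlations ran from -0.526 to 0.357, so some passed 0.1 too. TPCA-1+TNFα library 2 was at 0.257, 0.292 and 0.357 with DMSO, TNFα and TMP195+TNFα library 4. TPCA-1+TNFα library 1 was at 0.113, 0.168 and 0.176 with DMSO, TNFα and TMP195+TNFα library 2. The block over 16 libraries gives the TPCA-1+TNFα libraries the same number effects as the rest; a block over the 12 libraries of the other 3 groups was therefore added after the data were seen. Members were named by adjusted p, about 10 per comparison, plus Srebf1, Srebf2, Insig1, Scap, Fasn and Sqle.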

Additional observations from a re-analysis of the deposited data

Results flagged for a closer look

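In 4 of the 132 combinations of member and group, 1 library lay far from the other 3. That is a smaller share than the about 1 in 20 that chance gives for independent values. The members are not independent, since most moved together with the replicate number in 3 of the 4 groups. Mvk, the mevalonate kinase, was at 6.033 CPM in TMP195+TNFα library 4, and at 2.766 to 3.057 CPM in the other libraries of that group. Dhcr7, the last enzyme of cholesterol synthesis, was at 23.15 CPM in the same library and at 12.47 to 14.19 CPM in the others. Tm7sf2, a sterol reductase, was at 8.894 CPM in DMSO library 4 and at 2.907 to 3.532 CPM in the others. Fads2, a desaturase, was at 0.3404 CPM in TPCA-1+TNFα library 4 and at 0.6438 to 0.6843 CPM in the others, values of 5 to 14 reads. All 4 were libraries numbered 4, high in 3 cases and low in the TPCA-1+TNFα case.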

How the results depend on the processing

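The count of members that fell in TPCA-1+TNFα against TNFα cells was 17 to 20 on leaving out 1 library without the block and 19 to 30 with it. With the replicate block, counts of members higher and lower were 9 and 1 in TNFα against DMSO, 1 and 19 in TMP195+TNFα against TNFα, and 11 lower in TMP195+TNFα against DMSO cells. By number, the TPCA-1+TNFα libraries met the pairing rule with the others only in part. With the block, 1 member rose and 22 fell in TPCA-1+TNFα against TNFα cells, where 1999 of 12612 genes rose and 1836 fell. In TMP195+TNFα against TPCA-1+TNFα cells 14 were higher and 1 lower, where 2341 genes were higher and 2304 lower. In TPCA-1+TNFα against DMSO cells 22 fell, where 2564 genes fell. Over all groups, 15 of 16 libraries correlated best with their own number. Settings chosen after seeing the data were the block without the TPCA-1+TNFα group, which gave 22 higher and 4 lower in TNFα against DMSO, 2 higher and 27 lower in TMP195+TNFα against TNFα, and 23 lower in TMP195+TNFα against DMSO cells; and the block without libraries numbered 2, which gave 13 and 2, 1 and 24, and 18 lower in those comparisons, 1 higher and 29 lower in TPCA-1+TNFα against TNFα, 21 higher and 1 lower in TMP195+TNFα against TPCA-1+TNFα, and 27 lower in TPCA-1+TNFα against DMSO cells. Also added then were both blocks, over 16 and over 12 libraries, with each library left out. Shares over all genes are not given for the counts without libraries numbered 2 or with a library left out.

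Leaving out each library, with or without the block, gave 1 to 23 members higher and 0 to 4 lower in TNFα against DMSO, 0 to 2 higher and 0 to 28 lower in TMP195+TNFα against TNFα, 0 to 1 higher and 17 to 30 lower in TPCA-1+TNFα against TNFα, 4 to 21 higher and 0 to 5 lower in TMP195+TNFα against TPCA-1+TNFα, 2 to 3 higher and 0 to 25 lower in TMP195+TNFα against DMSO and 7 to 28 lower in TPCA-1+TNFα against DMSO cells. Without a filter on low counts, 9 fell in TMP195+TNFα against TNFα, 1 rose in TPCA-1+TNFα against TNFα, 8 were higher and 1 lower in TMP195+TNFα against TPCA-1+TNFα, and 5 fell in TMP195+TNFα against DMSO cells. DESeq2 gave 4 lower in TMP195+TNFα against TNFα, 1 higher in TPCA-1+TNFα against TNFα and 1 lower in TMP195+TNFα against TPCA-1+TNFα cells. With the 8 libraries of the groups compared, 2 fell in TMP195+TNFα against TNFα cells. The cause of these moves was not tested.

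Of 3047 alternative log2 fold changes of 130 gene results, 2682 kept direction and side of the threshold, 273 passed it newly, 68 lost it and 24 changed sign, 22 of them on leaving out 1 library. None of the values that changed sign belonged to a call. On leaving out 1 library, in TNFα against DMSO cells, Insig1 ranged over -0.10 to 0.60, Srebf2 -0.17 to 0.57, Fasn -0.19 to 0.72 and Srebf1 -0.14 to 0.54; in TMP195+TNFα against TNFα cells, Scap -0.14 to 0.20; in TMP195+TNFα against TPCA-1+TNFα cells, Insig1 -0.33 to 0.19, Srebf2 -0.24 to 0.26 and Srebf1 -0.16 to 0.22; in TMP195+TNFα against DMSO cells, Sqle -0.60 to 0.057, Srebf2 -0.58 to 0.12 and Srebf1 -0.39 to 0.18; and in TPCA-1+TNFα against DMSO cells, Srebf2 -0.53 to 0.047 and Srebf1 -0.38 to 0.11. In TMP195+TNFα against TPCA-1+TNFα cells Srebf2 was at -0.043 with the replicate block, and Fasn at 0.0027 with the block without libraries numbered 2. The depth of TPCA-1+TNFα library 2 limits the low members most.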
